A study of Homo sapiens with 20 samples.

Results

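The genes described here are 37 genes of protein folding in the endoplasmic reticulum (ER) and of the unfolded protein response. They are the rows of a list of symbols, and the rule that picks them uses no measured value. The list itself was chosen with earlier results of these data known. All 37 were found among the 45372 gene symbols of both deposited tables, and all 37 passed the filter on low values, so every one was tested. RNA sequencing of HEK293T cells, a human embryonic kidney line carrying the SV40 large T antigen, was done after small interfering RNA (siRNA) against HUWE1, a HECT-type ubiquitin ligase. The 20 libraries form 5 groups of 4 biological replicates. HUWE1 siRNA set 1 has its own non-targeting siRNA group in 1 table. HUWE1 siRNA set 2 and HUWE1 siRNA set 3 share 1 group of non-targeting libraries in a second table. All groups are the same line given some siRNA, untransfected cells were not analysed here, and the sources do not say what tells the siRNA sets apart. Values are TPM, which divides a gene's reads by transcript length and then scales these rates to the same sum in every library. Gene positions are those of GENCODE release 29 on hg38, and all genes placed below are protein-coding.

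The ER folds secreted and membrane proteins with the help of chaperones, disulfide isomerases and a glycan-reading lectin cycle, and it sends those that fail back to the cytosol for degradation by the proteasome. When unfolded proteins build up, the sensors ERN1 (IRE1), EIF2AK3 (PERK) and ATF6 start the unfolded protein response. ERN1 splices the XBP1 mRNA, EIF2AK3 phosphorylates the initiation factor eIF2, and ATF6 is cut in the Golgi to free a transcription factor. The transcription factors then raise the mRNA of chaperones and degradation factors, many of them through the ER stress response element in their promoters. Splicing of XBP1, phosphorylation and cleavage are not seen in a gene-level TPM.

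Promoters of 5 of the genes are printed to show that element beside the expression values of its best-known bearers. The ER stress element (ERSE) was searched as CCAAT and CCACG parted by any 9 bases, and its shorter form (ERSE-II) as ATTGG and CCACG parted by any 1 base, on both strands of a window of 300 bases from 250 before to 50 after each RefSeq start (GRCh38.p14). Capitals mark the element. Where it lies on the other strand, the capitals read as its reverse complement. Bases that GENCODE release 29 puts in an untranslated region were left off the end.
CALR, chr19:12938359-12938606, plus strand: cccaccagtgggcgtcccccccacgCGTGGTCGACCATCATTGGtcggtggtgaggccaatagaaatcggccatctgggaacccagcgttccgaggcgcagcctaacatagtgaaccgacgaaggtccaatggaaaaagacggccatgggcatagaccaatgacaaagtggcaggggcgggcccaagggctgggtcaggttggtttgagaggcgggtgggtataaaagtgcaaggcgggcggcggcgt
XBP1, chr22:28800598-28800819, minus strand: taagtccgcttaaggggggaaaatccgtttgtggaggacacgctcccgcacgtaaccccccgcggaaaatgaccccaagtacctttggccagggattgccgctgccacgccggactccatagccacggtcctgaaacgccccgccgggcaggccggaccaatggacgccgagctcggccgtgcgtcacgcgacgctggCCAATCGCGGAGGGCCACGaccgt
HSPA5, chr9:125241344-125241593, minus strand: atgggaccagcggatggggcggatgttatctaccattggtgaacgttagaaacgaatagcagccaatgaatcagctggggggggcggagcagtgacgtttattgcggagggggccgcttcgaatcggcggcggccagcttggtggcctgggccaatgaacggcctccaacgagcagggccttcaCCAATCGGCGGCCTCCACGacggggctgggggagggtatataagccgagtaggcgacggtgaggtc
SDF2L1, chr22:21642052-21642260, plus strand: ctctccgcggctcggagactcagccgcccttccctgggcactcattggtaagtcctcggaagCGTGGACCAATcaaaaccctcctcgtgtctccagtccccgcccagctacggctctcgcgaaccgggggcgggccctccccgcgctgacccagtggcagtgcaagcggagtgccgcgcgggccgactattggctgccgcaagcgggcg
HERPUD1, chr16:56931892-56932047, plus strand: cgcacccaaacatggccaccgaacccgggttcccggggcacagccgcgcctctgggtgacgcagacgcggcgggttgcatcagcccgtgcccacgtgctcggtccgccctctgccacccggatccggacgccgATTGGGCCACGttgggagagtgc

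Of the 37 genes, 34 had a RefSeq window. An ERSE match was found in 7 of the 34 (20.6%), namely CALR, CANX, CRELD2, HSP90B1, HSPA5, PDIA6 and XBP1, against 0.0916% of all 27305 genes with a window. HSP90B1 held the element in 2 places. The ERSE-II match was found in HERPUD1, HYOU1 and SDF2L1 (8.82%), against 0.0696% of all genes. HYOU1 also held TGACGTGG, the core letters of the unfolded protein response element, which 0.927% of all genes hold. The single letters CCAAT were found in 29 of the 34 genes (85.3%), against 39.7% of all genes. The element's other part, CCACG, was found in 25 of them (73.5%), against 42.1% of all genes. Both short motifs also lie inside each ERSE match. A match gives the letters only and does not show a bound site. Genes of this response are the element's best-known bearers, so these shares are descriptive and test nothing. The 27305 genes were not limited to expressed ones, while all 37 members passed the filter on low values.

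HUWE1 mRNA was lower in all HUWE1 siRNA groups. It was 85.03 ± 1.72 TPM in HUWE1 siRNA set 1 and 157.2 ± 3.57 TPM in its non-targeting libraries (SD, n = 4 each; limma adjusted p = 1.69e-07). In the second table it was 94.57 ± 2.26 TPM in set 2, 84.77 ± 5.42 TPM in set 3 and 163.3 ± 3.49 TPM in the non-targeting libraries. The adjusted p was 7.45e-06 for set 2 and 8.17e-07 for set 3. The exact two-sided permutation test of 4 against 4 libraries gave 0.0286, the smallest p it allows, in each of the 3 sets. Within-group correlations of log2(TPM + 1) were at least 0.997, except among the non-targeting libraries of sets 2 and 3, where the lowest was 0.993. Replicate 1 of that group stood farthest from the others, and 20 of the 37 genes had their highest value of the group in it. All 9 markers of the HEK293T line were present at 1 TPM or more. In set 1, 2 of the 9 were higher and 4 lower (66.7% called, against 30.3% of all genes). They summed to 913 to 949 TPM in HUWE1 siRNA set 1 and to 1020 to 1070 TPM in its non-targeting libraries, without overlap. Of 15 markers of blood, vessel, stromal and liver cells, 8 were under 1 TPM in every library, and HBB was at 0. Those 15 markers summed to 35.8 to 39.6 TPM in HUWE1 siRNA set 1 and to 31.9 to 34.7 TPM in its non-targeting libraries, and the part of both marker lists in the set 1 results was not tested.

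The summed level of the 37 genes was 5506 ± 114 TPM in HUWE1 siRNA set 1 and 5253 ± 157 TPM in its non-targeting libraries. In the second table it was 5360 ± 224 TPM in set 2, 5167 ± 63.1 TPM in set 3 and 5243 ± 154 TPM in the non-targeting libraries. CALR was the most abundant member in the non-targeting libraries of both tables, at 770.1 TPM for set 1 and 725.2 TPM for sets 2 and 3. HSPA5, CANX and HSP90B1 followed it in both, in an order that differed between the tables. ERN1 was the lowest member in both, at 9.80 and 8.31 TPM. The tables were normalized separately and no test was made across them. Levels of 1 gene could differ between them, as for DNAJB9 at 28.62 TPM in the non-targeting libraries of set 1 and 43.09 TPM in those of sets 2 and 3.

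**Figure D1:**
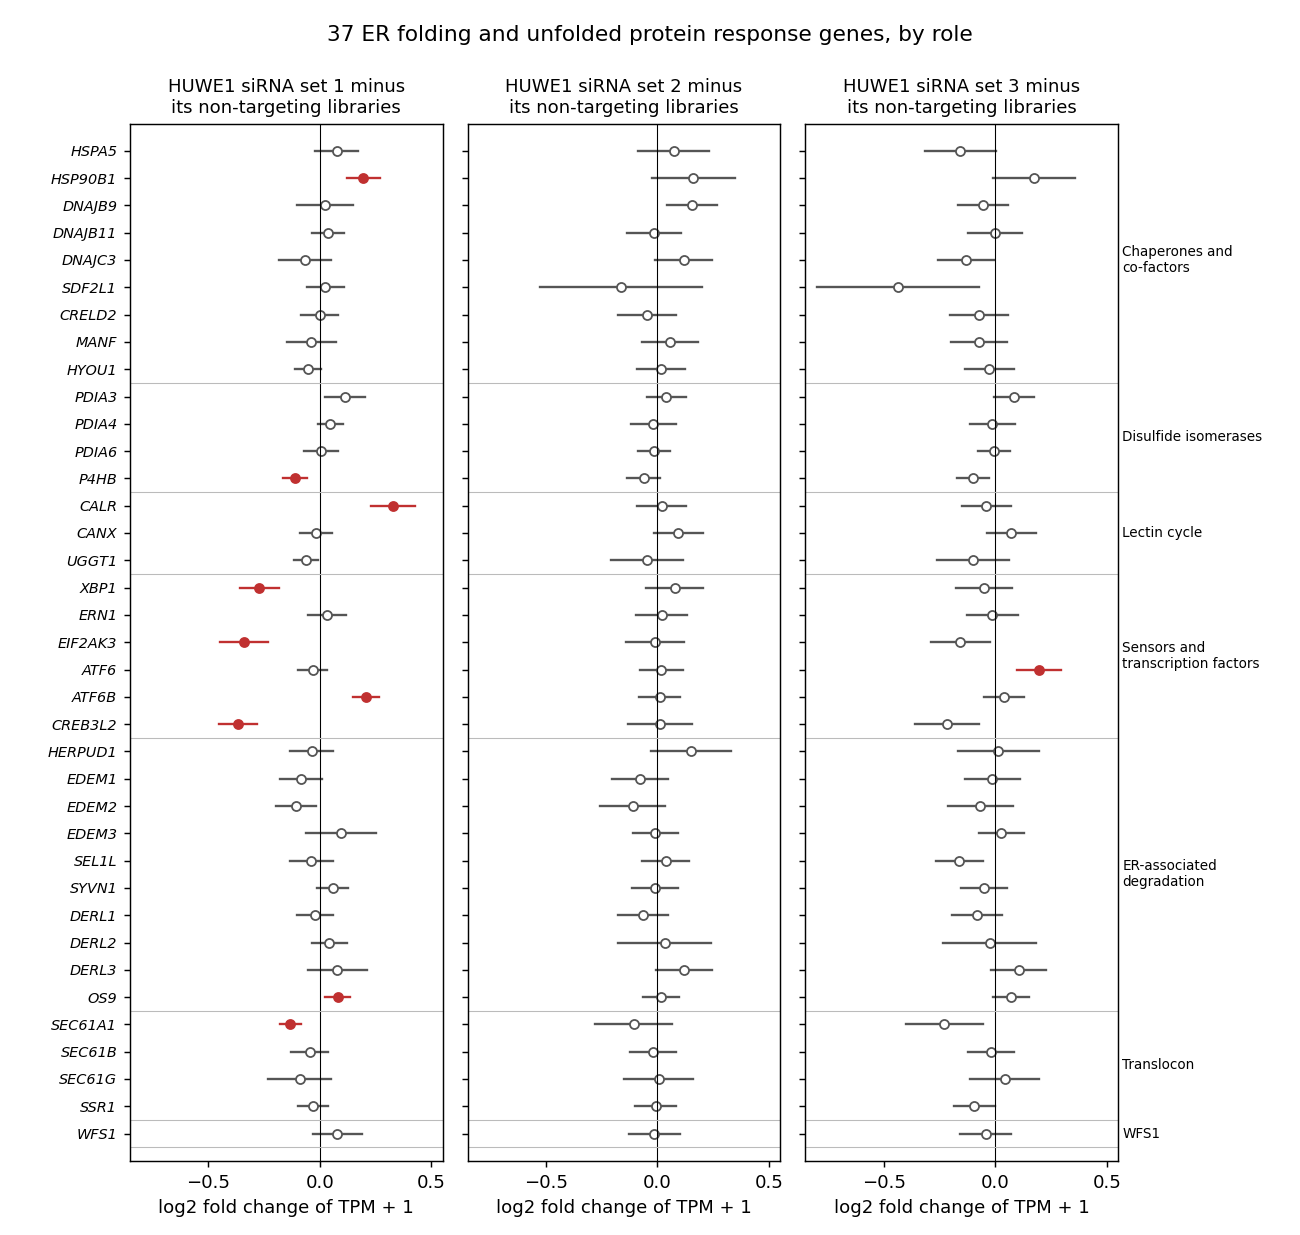
Log2 fold change of TPM + 1 (HUWE1 siRNA minus non-targeting libraries) of the 37 genes for sets 1, 2 and 3, with the 95% interval of the limma fit; filled red points have an adjusted p under 0.05. Most intervals in each panel cross 0, and called genes of set 1 lie on both sides of it, from CREB3L2 at -0.37 to CALR at 0.33.

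In HUWE1 siRNA set 1, CALR, HSP90B1, ATF6B and OS9 were higher, and CREB3L2, EIF2AK3, XBP1, SEC61A1 and P4HB were lower. That is 9 of 37 genes (24.3%) at a limma adjusted p under 0.05, against 30.3% of all 16057 genes tested in this comparison, which is near that background and not a result about these genes. Higher genes were 10.8% of the 37 and 12.3% of all genes, and lower genes were 13.5% of the 37 and 17.9% of all genes. The split over all genes, 1983 higher and 2880 lower, became 2459 and 2407 on scaling by median of ratios, 2430 and 2357 after quantile normalization, and 2190 and 2588 without mitochondrially encoded genes. The median log2 fold change was -0.02 for the 37 genes and -0.01 for all genes. Its median size, without sign, was 0.06 for the 37 genes and 0.10 for all. The groups did not overlap for 10 of the 37 genes (27.0%), against 31.7% of all genes. Of these, 3 lay above their controls (8.11%, against 13.3% of all genes) and 7 below (18.9%, against 18.4%). Before adjustment, 12 of the 37 (32.4%) had a limma p under 0.05, against 41.9% of all genes. The kit marks strand, but whether counting used it is unknown. Of the called genes, CALR, HSP90B1, EIF2AK3, CREB3L2, P4HB, SEC61A1 and OS9 overlap an annotated gene on the other strand, and XBP1 overlaps none. In bulk RNA, fewer cells that hold a transcript and less of it per cell cannot be told apart.

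Among the chaperones, HSP90B1 (chr12:103930107-103953645, plus strand), the ER form of the HSP90 family, was the single called gene of 9. Of all genes tested in set 1, 30.3% were called. It measured 477, 464, 492 and 499 TPM in HUWE1 siRNA set 1, against 412, 406, 440 and 430 TPM in the non-targeting libraries. All HUWE1 siRNA libraries lay above all non-targeting ones, and the log2 fold change was 0.20 ± 0.03 (SE; adjusted p = 0.0021). HSPA5 (BiP; chr9:125234853-125241330, minus strand), the main ER chaperone and the usual readout of the unfolded protein response, measured 615, 596, 639 and 653 TPM in HUWE1 siRNA set 1, against 562, 573, 637 and 606 TPM in the non-targeting libraries. These groups overlapped, and the 95% interval of the log2 fold change ran from -0.02 to 0.17 (adjusted p = 0.214). SDF2L1, a partner of BiP and its co-chaperones, was at 119.8 TPM in HUWE1 siRNA set 1 and 117.8 TPM in non-targeting libraries. DNAJB9, a J-domain co-chaperone that the XBP1 branch is known to induce, gave a log2 fold change of 0.02, with a 95% interval from -0.10 to 0.15. For the other 5 chaperones and co-factors, DNAJB11, DNAJC3, CRELD2, MANF and HYOU1, the log2 fold changes ran from -0.07 to 0.04, and none was called.

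CALR (chr19:12938578-12944489, plus strand), the soluble lectin chaperone that binds monoglucosylated glycans, had the largest increase of the 37. It measured 901, 954, 987 and 1028 TPM in HUWE1 siRNA set 1, against 751, 733, 803 and 794 TPM in the non-targeting libraries. The groups were well apart, with a log2 fold change of 0.33 ± 0.04 (SE; adjusted p = 0.00065). Its membrane-bound counterpart CANX was at 98.7% of its non-targeting mean (adjusted p = 0.725). UGGT1, which puts the glucose back on misfolded glycoproteins, was at 95.8% of its non-targeting mean, with no overlap between the groups and an adjusted p of 0.0857.

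P4HB (chr17:81843159-81860694, minus strand), a protein disulfide isomerase and subunit of collagen prolyl hydroxylase, fell to 299.3 ± 7.45 TPM in HUWE1 siRNA set 1, against 323.2 ± 4.35 TPM in non-targeting libraries (SD, n = 4 each; limma adjusted p = 0.00687). The related PDIA3, the isomerase that works with CALR and CANX, was at 287.4 TPM in HUWE1 siRNA set 1 and 265.9 TPM in non-targeting libraries. Its limma adjusted p was 0.0565, so it was not called, but it was called higher with the replicate block (adjusted p = 0.019), median-of-ratios scaling (0.0272), quantile normalization (0.0165), a mean TPM of 5 or more (0.0433) and no mitochondrially encoded genes (0.0379). Leaving out non-targeting replicate 4 (0.0442) or HUWE1 siRNA replicate 2 (0.0449) also gave a call, and the other single libraries did not. PDIA4 and PDIA6 had log2 fold changes of 0.05 and 0.00 and were not called.

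The sensors and transcription factors had 4 called genes among 6, where 30.3% of all genes were called, and no test was made on so few. CREB3L2 (chr7:137874979-138002067, minus strand), a membrane-bound factor of the same kind as ATF6, fell to 25.0, 23.2, 23.2 and 23.5 TPM in HUWE1 siRNA set 1, against 29.6, 32.6, 30.6 and 30.7 TPM in the non-targeting libraries. EIF2AK3 (chr2:88556741-88627576, minus strand), the PERK kinase, fell to 15.5, 14.0, 16.1 and 14.4 TPM in HUWE1 siRNA set 1, against 18.4, 19.1, 20.1 and 19.2 TPM in the non-targeting libraries. XBP1 (chr22:28794555-28800597, minus strand) fell to 111, 105, 111 and 110 TPM in HUWE1 siRNA set 1, against 124, 127, 137 and 139 TPM in the non-targeting libraries. In all 3 genes, every HUWE1 siRNA library lay below every non-targeting one. The log2 fold changes were -0.37, -0.34 and -0.27 in that order, with adjusted p of 0.000203, 0.000906 and 0.00101. ATF6B (chr6:32115264-32128253, minus strand), a paralog of ATF6, rose to 153.0 ± 5.05 TPM in HUWE1 siRNA set 1, against 132.4 ± 0.933 TPM in non-targeting libraries (SD, n = 4 each; limma adjusted p = 0.000546). In GENCODE release 29 ATF6B overlaps TNXB on the same strand, so reads could be shared between them. ATF6 itself was at 97.7% and ERN1 at 102.5% of their non-targeting means, and neither was called.

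Of the 10 genes of ER-associated degradation, 1 was called, where 30.3% of all genes were called. It was OS9 (chr12:57693955-57721557, plus strand), a lectin that hands misfolded glycoproteins to the SEL1L and SYVN1 ligase complex. It measured 154, 156, 155 and 151 TPM in HUWE1 siRNA set 1, against 144, 152, 143 and 144 TPM in the non-targeting libraries. Replicate 2 of the non-targeting group lay within the HUWE1 siRNA values, and the adjusted p was 0.0392. The call was lost on leaving out any 1 of 6 of the 8 libraries, with no filter on low values (adjusted p = 0.0601) and without the variance trend (adjusted p = 0.0818). The mannosidase-like EDEM2 was at 21.31 TPM in HUWE1 siRNA set 1 and 23.07 TPM in non-targeting libraries, without overlap (adjusted p = 0.0671). HERPUD1, a membrane adaptor of the ligase complex that ER stress is known to induce, was at 97.4% of its non-targeting mean (95% interval of the log2 fold change from -0.13 to 0.06). EDEM1, EDEM3, SEL1L, SYVN1, DERL1, DERL2 and DERL3 were not called either.

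In the translocon, SEC61A1 (chr3:128051641-128071683, plus strand), the channel-forming subunit, measured 238, 241, 238 and 232 TPM in HUWE1 siRNA set 1, against 260, 261, 258 and 261 TPM in the non-targeting libraries. The values within each group were close and the groups were apart, with a log2 fold change of -0.13 ± 0.02 (SE; adjusted p = 0.00138). The smaller subunits SEC61B and SEC61G and the associated SSR1 had log2 fold changes of -0.04, -0.09 and -0.03, and none was called. WFS1, an ER membrane glycoprotein, was at 29.21 ± 1.63 TPM in HUWE1 siRNA set 1 and 27.62 ± 1.56 TPM in non-targeting libraries, and was not called.

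**Figure D2:**
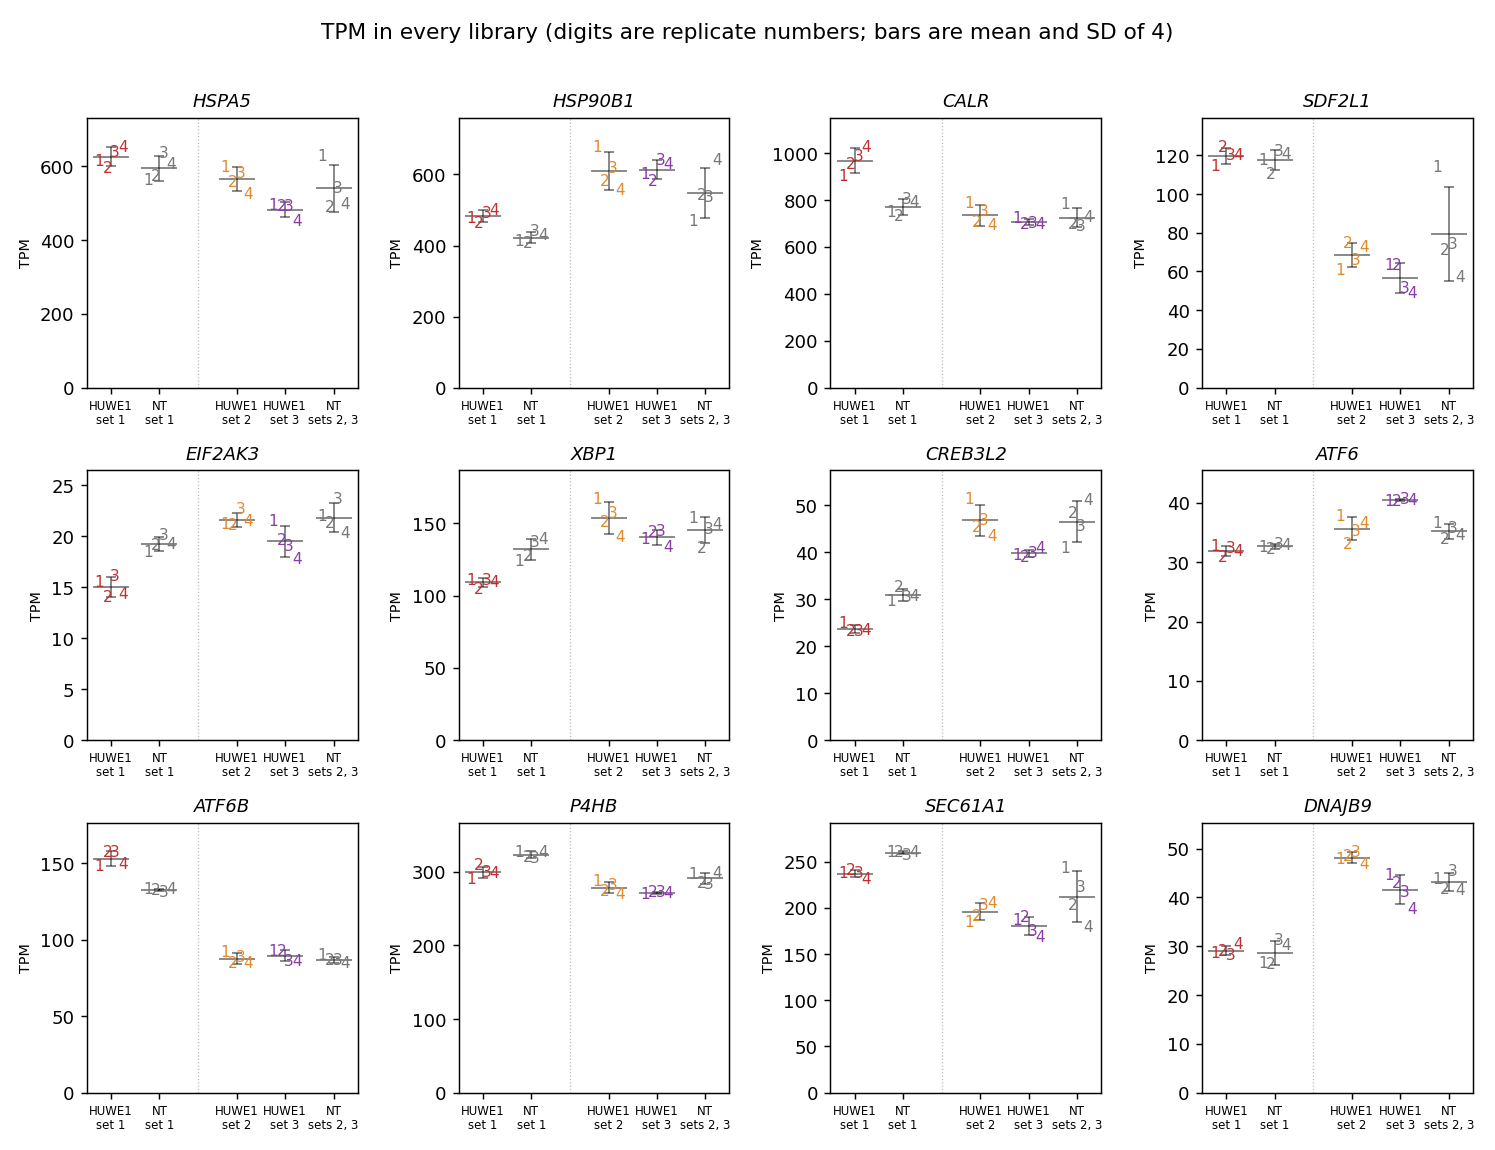
TPM of 12 of the genes in each of the 20 libraries; digits are replicate numbers, horizontal lines the means of 4 and bars the SD, and the dotted line parts the tables. In set 1 the libraries of EIF2AK3, XBP1 and CREB3L2 lie below their non-targeting libraries and those of CALR, HSP90B1 and ATF6B above; in the second table non-targeting replicate 1 of SDF2L1 is at 114 TPM, far from the other libraries.

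In HUWE1 siRNA set 2, none of the 37 genes was called by limma. In all, 0.0126% of the 15860 genes tested were called, which is 2 genes, and both fell. At an unadjusted limma p under 0.05 there was 1 of the 37 genes (2.70%), DNAJB9, against 8.83% of all genes. The median log2 fold change was 0.01 for the 37 genes and -0.00 for all genes. DNAJB9 measured 47.9, 48.4, 49.4 and 46.8 TPM in HUWE1 siRNA set 2, against 43.7, 41.8, 45.4 and 41.5 TPM in the non-targeting libraries. The groups did not overlap, and the log2 fold change was 0.16 ± 0.05 (SE; adjusted p = 0.492). DERL3, a Derlin of the ER degradation machinery, also did not overlap, at 21.0, 19.9, 23.5 and 19.7 TPM in HUWE1 siRNA set 2, against 19.6, 19.5, 19.4 and 18.6 TPM in the non-targeting libraries. That makes 2 of 37 genes without overlap (5.41%), against 3.69% of all genes. Both were on the higher side, where 1.99% of all genes lay, and none was on the lower side, against 1.71% of all genes.

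The other 4 of the 6 smallest p-values in set 2 belonged to DNAJC3, HSP90B1, CANX and P4HB. DNAJC3, a co-chaperone and inhibitor of PERK-type kinases, measured 34.3, 29.6, 31.5 and 31.2 TPM in HUWE1 siRNA set 2, against 29.6, 27.8, 30.4 and 28.6 TPM in the non-targeting libraries. HSP90B1 measured 678, 583, 619 and 556 TPM in HUWE1 siRNA set 2, against 469, 542, 535 and 640 TPM in the non-targeting libraries. CANX measured 619, 545, 584 and 541 TPM in HUWE1 siRNA set 2, against 516, 513, 542 and 573 TPM in the non-targeting libraries. These 3 genes overlapped between the groups, as did P4HB, at 287, 274, 282 and 270 TPM in HUWE1 siRNA set 2, against 297, 284, 284 and 298 TPM in the non-targeting libraries. HSPA5 had a log2 fold change of 0.07, with a 95% interval from -0.09 to 0.23. The corresponding intervals were -0.05 to 0.20 for XBP1, -0.14 to 0.12 for EIF2AK3, -0.08 to 0.11 for ATF6 and -0.10 to 0.13 for ERN1. For HERPUD1 the interval was -0.03 to 0.33, and for SDF2L1 it was -0.53 to 0.20.

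In HUWE1 siRNA set 3, ATF6 was higher and no other member was called. That is 1 of 37 genes (2.70%), against 11.6% of all 15860 genes tested, of which 7.45% were higher and 4.15% lower. The split over all genes, 1181 higher and 658 lower, became 922 and 965 on scaling by median of ratios, 1023 and 929 after quantile normalization, and 687 and 862 without mitochondrially encoded genes. Unadjusted limma p-values under 0.05 were found for 9 of the 37 genes (24.3%), against 34.5% of all genes. The median log2 fold change was -0.04 for the 37 genes and 0.01 for all genes, and 26 of the 37 had a negative value. The share of TPM in mitochondrially encoded genes was 15.9 ± 0.372% in set 3 and 17.7 ± 0.762% in the non-targeting libraries (SD, n = 4 each). With TPM recomputed without those genes, 4 of the 37 were called (ATF6 higher and P4HB, SEL1L and CREB3L2 lower), which is 10.8% against 9.53% of all genes in that fit, near that background.

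ATF6 (chr1:161766294-161964070, plus strand) measured 40.4, 40.4, 40.7 and 40.5 TPM in HUWE1 siRNA set 3, against 36.7, 33.9, 35.8 and 34.5 TPM in the non-targeting libraries. The set 3 values were almost the same as each other and above all controls, with a log2 fold change of 0.20 ± 0.04 (SE; adjusted p = 0.0239). Leaving out 1 library ended the call for 5 of the 8 libraries compared. The adjusted p was 0.0644 without non-targeting replicate 2 and 0.0627 without non-targeting replicate 3. It was 0.0557, 0.0721 and 0.0723 without replicates 1, 3 and 4 of HUWE1 siRNA set 3. The direction stayed the same throughout, with log2 fold changes from 0.18 to 0.22.

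Several members came close to the threshold in set 3 on the lower side. SEL1L, the scaffold of the degradation ligase complex, measured 43.9, 43.1, 43.2 and 43.5 TPM in HUWE1 siRNA set 3, against 48.6, 47.0, 51.3 and 47.8 TPM in the non-targeting libraries (adjusted p = 0.0511). CREB3L2 measured 39.5, 39.0, 39.9 and 40.9 TPM in HUWE1 siRNA set 3, against 41.0, 48.5, 45.6 and 51.1 TPM in the non-targeting libraries (adjusted p = 0.0514). P4HB measured 269, 273, 272 and 271 TPM in HUWE1 siRNA set 3, against 297, 284, 284 and 298 TPM in the non-targeting libraries (adjusted p = 0.0669). In these 3 genes and in SSR1 every set 3 library lay below every non-targeting one. Together with ATF6, 5 of the 37 genes (13.5%) did not overlap, against 17.2% of all genes. The 4 on the lower side are 10.8% of the 37, against 6.03% of all genes, and ATF6 alone was on the higher side, against 11.2% of all genes.

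SEC61A1 measured 186, 190, 175 and 169 TPM in HUWE1 siRNA set 3, against 244, 203, 222 and 180 TPM in the non-targeting libraries. SDF2L1 measured 63.3, 63.5, 51.7 and 48.6 TPM in HUWE1 siRNA set 3, against 114, 71.1, 74.3 and 57.3 TPM in the non-targeting libraries. For both, the groups overlapped and the spread came mainly from the non-targeting libraries, with adjusted p of 0.0703 and 0.0915. Without non-targeting replicate 4, which lay low for both genes, 6 of the 37 were called in set 3 (16.2%), against 5878 of all 15816 genes (37.2%). ATF6 and HSP90B1 were then higher, and SDF2L1, EIF2AK3, SEL1L and SEC61A1 lower. Without non-targeting replicate 1 the called genes were ATF6, higher, and CREB3L2, lower (5.41% of the 37, against 4.72% of all genes).

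The remaining sensors and markers of the response were not called in set 3. HSPA5 measured 496, 491, 491 and 451 TPM in HUWE1 siRNA set 3, against 629, 490, 542 and 498 TPM in the non-targeting libraries (adjusted p = 0.15). HSP90B1 was at 612.9 ± 26.6 TPM in HUWE1 siRNA set 3 and 546.5 ± 70.4 TPM in the non-targeting libraries (SD, n = 4 each; limma adjusted p = 0.166). EIF2AK3 had a log2 fold change of -0.16 (adjusted p = 0.0946) and XBP1 of -0.05 (95% interval from -0.18 to 0.08). For ERN1, HERPUD1 and DNAJB9 the log2 fold changes were -0.01, 0.01 and -0.05. CALR, the largest increase of set 1, was at 704.9 TPM in HUWE1 siRNA set 3 and 725.2 TPM in the non-targeting libraries. Its 95% interval of the log2 fold change ran from -0.15 to 0.07. The non-targeting libraries are shared by sets 2 and 3, so the 2 comparisons are not independent of each other.

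HUWE1 siRNA sets 3 and 2 were also set against each other within their table. None of the 37 genes was called by limma, against 0.517% of all genes (0.309% higher and 0.208% lower), and 9 (24.3%) had an unadjusted p under 0.05, against 15.8% of all genes. The 6 genes without overlap (16.2%, against 13.2% of all genes) were DNAJC3, DNAJB9, SEL1L, CREB3L2 and HSPA5, lower in set 3, and ATF6, higher in set 3. The 5 lower genes are 13.5% of the 37, against 5.05% of all genes, and 8.13% of all genes lay on the higher side. HSPA5 measured 496, 491, 491 and 451 TPM in set 3, against 598, 558, 582 and 524 TPM in set 2. Its log2 fold change was -0.23 ± 0.07 (SE; adjusted p = 0.172). DNAJC3 averaged 26.51 ± 1.87 TPM in set 3 and 31.64 ± 1.99 TPM in set 2 (SD, n = 4 each; limma adjusted p = 0.0827). The adjusted p was 0.097 for DNAJB9 and SEL1L, 0.0977 for ATF6 and 0.14 for CREB3L2. In the fit on the 8 libraries of those groups alone, HSPA5 was the one member called (adjusted p = 0.0434), which is 2.7% of the 37 against 2.15% of all genes in that fit, near that background.

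The members with and without the promoter element were set side by side, with no test. The 10 genes with an ERSE or ERSE-II match include CALR and HSP90B1, called higher in set 1, and XBP1, called lower in set 1. Their median log2 fold change in set 1 was 0.00, and that of the 24 genes with a window and no match was -0.04, with 2 higher and 4 lower among them. Of all genes tested in set 1, 30.3% were called, 12.3% higher and 17.9% lower. The counts of both groups are near that background and not a result about these genes. In set 2 the medians were 0.05 for genes with a match and -0.01 for those without. In set 3 they were -0.03 and -0.05 in the same order. HSPA5, HERPUD1 and SDF2L1, whose elements are printed beside them, were called in none of the 3 sets.

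**Figure D3:**
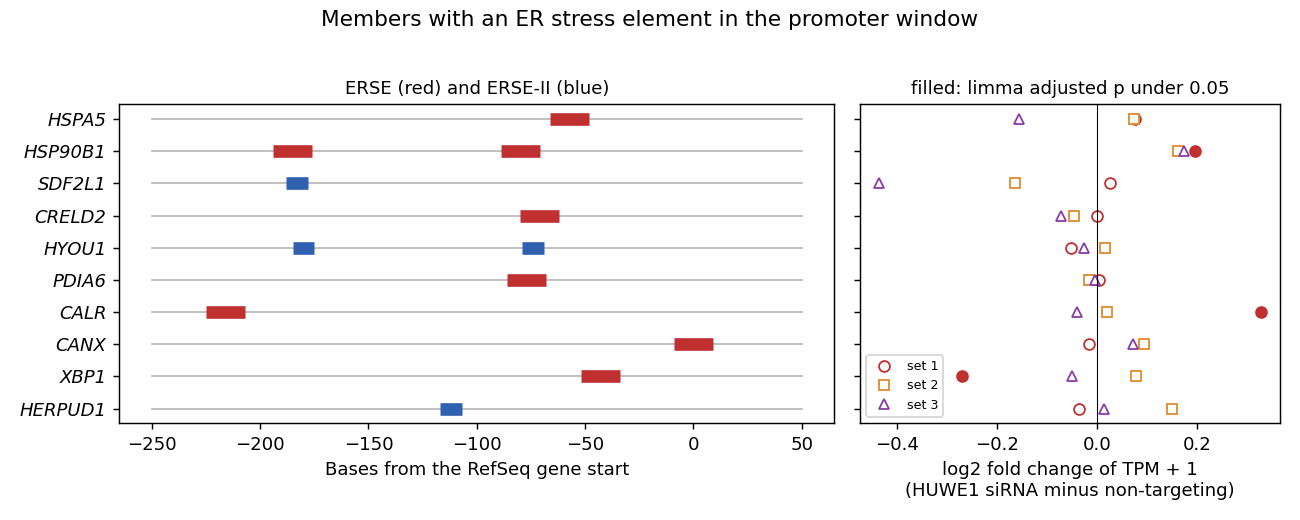
Left, the place of ERSE (red) and ERSE-II (blue) in the promoter windows of the 10 genes with a match, in bases from the RefSeq start (CANX is drawn from 1 of its starts); right, the log2 fold change of TPM + 1 in sets 1, 2 and 3, filled where the adjusted p is under 0.05. The 3 filled points, all in set 1, are HSP90B1 at 0.20, CALR at 0.33 and XBP1 at -0.27.

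Other genes of the ER and of related stress pathways were counted in the same fits, from lists made with earlier results of these data known. Their counts and calls were not repeated under other scalings or with a library left out. In set 3, leaving out 1 library moved the share of all genes called between 1.03% and 37.2%. In HUWE1 siRNA set 1, the genes of the PERK and ATF4 arm, which EIF2AK3 and kindred kinases start by phosphorylating eIF2, were mostly lower, with 15 of 25 lower and 1 higher (64.0% called, against 30.3% of all genes). Their median log2 fold change was -0.14, against -0.01 for all genes. TRIB3, a pseudokinase induced by ATF4, fell to 37.97 ± 3.8 TPM in HUWE1 siRNA set 1, against 63.21 ± 2.4 TPM in non-targeting libraries (SD, n = 4 each; limma adjusted p = 7.74e-05). CEBPG, a transcription factor partner of ATF4, fell to 207.0 TPM in HUWE1 siRNA set 1, against 276.5 TPM in non-targeting libraries. PPP1R15A, which directs a phosphatase to eIF2, fell to 132.8 TPM in HUWE1 siRNA set 1, against 175.9 TPM in non-targeting libraries. The one higher gene was EIF2AK1, the heme-regulated eIF2 kinase (119.1 TPM in HUWE1 siRNA set 1 and 110.2 TPM in non-targeting libraries). ATF4 itself was at 1262 TPM in HUWE1 siRNA set 1 and 1324 TPM in non-targeting libraries (adjusted p = 0.0324), and DDIT3 (CHOP) was not called (adjusted p = 0.197).

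In the second table, 1 of the 25 genes of this list was higher and 1 lower in set 3 (8.0% called, against 11.6% of all genes), and in set 2 none was called. DDIT4, a stress-induced inhibitor of mTORC1, fell to 828.9 ± 88.6 TPM in set 3, against 1475 ± 378 TPM in the non-targeting libraries (SD, n = 4 each; limma adjusted p = 0.0183). In set 1 it fell to 723.7 TPM in HUWE1 siRNA libraries, against 1196 TPM in non-targeting libraries. NFE2L2, the oxidative stress factor that PERK can phosphorylate, rose to 34.13 TPM in set 3, against 29.25 TPM in the non-targeting libraries. TRIB3 in set 3 was at 48.20 TPM, against 46.43 TPM in the non-targeting libraries (adjusted p = 0.691). No test compares set 1 with set 3 across the tables.

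Genes of translocation and signal peptidase beyond the members had 7 of 22 lower and none higher in set 1 (31.8%), against 30.3% of all genes called and 17.9% lower. They included SRPRB and SRPRA, the subunits of the signal recognition particle receptor, and SRP68, a protein of the particle. SRPRA was at 70.75 ± 2.07 TPM in HUWE1 siRNA set 1 and 84.88 ± 2.28 TPM in non-targeting libraries (limma adjusted p = 0.000313). In set 3 it was at 62.15 ± 1.79 TPM and in the non-targeting libraries at 83.65 ± 2.14 TPM (limma adjusted p = 0.000705). In set 2 SRPRA was at 88.43 ± 4.75 TPM. Set 3 against set 2 gave SRPRA a log2 fold change of -0.50 (adjusted p = 0.000279). In set 3, 3 of the 22 genes were lower and 1, SEC11A, a signal peptidase subunit, was higher (18.2%, against 11.6% of all genes).

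Of 41 other ER folding enzymes, 5 were higher and 8 lower in set 1 (31.7%, against 30.3% of all genes), and 5 were higher and 4 lower in set 3 (22.0%, against 11.6%). MLEC, an ER lectin for diglucosylated glycans, was at 91.05 ± 3.46 TPM in set 3 and 139.9 ± 18.5 TPM in the non-targeting libraries (SD, n = 4 each; limma adjusted p = 0.00459). Its set 1 levels were 128.3 TPM in HUWE1 siRNA libraries and 146.4 TPM in non-targeting libraries (adjusted p = 0.002). Set 3 against set 2 gave a log2 fold change of -0.47 (adjusted p = 0.038), which makes MLEC and SRPRA the only genes called in that comparison on the 7 lists of other ER and stress genes. TXNDC5, a thioredoxin-like disulfide isomerase, fell to 175.3 TPM in HUWE1 siRNA set 1, against 205.6 TPM in its non-targeting libraries, and to 172.4 TPM in set 3, against 207.1 TPM in the non-targeting libraries. PPIC, a cyclophilin-type prolyl isomerase, rose to 30.64 TPM in HUWE1 siRNA set 1, against 24.87 TPM in its non-targeting libraries, and to 53.40 TPM in set 3, against 40.41 TPM in the non-targeting libraries.

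N-glycosylation genes had 7 lower and none higher of 31 in set 1 (22.6% called), against 30.3% of all genes called and 17.9% of all genes lower. In set 3, 8 of the 31 were higher and 1 lower, against 7.45% and 4.15% of all genes. DPM2, a subunit of dolichol-phosphate mannose synthase, fell to 116.5 TPM in HUWE1 siRNA set 1, against 141.7 TPM in non-targeting libraries. DPM1, the catalytic subunit of the same enzyme, rose to 132.7 TPM in set 3, against 110.6 TPM in the non-targeting libraries. ALG3, a mannosyltransferase, fell in both, to 44.59 TPM in HUWE1 siRNA set 1, against 54.69 TPM in its non-targeting libraries, and to 29.24 TPM in set 3, against 33.34 TPM in the non-targeting libraries.

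Among 32 other genes of ER-associated degradation tested, 7 were higher and 5 lower in set 1 (37.5%, against 30.3% of all genes), and 7 were higher and 2 lower in set 3 (28.1%, against 11.6%). JKAMP, a membrane protein that links the proteasome to the ER, rose to 30.55 TPM in HUWE1 siRNA set 1, against 26.16 TPM in its non-targeting libraries, and to 34.22 TPM in set 3, against 29.26 TPM in the non-targeting libraries. SELENOK, a selenoprotein of the Derlin complex, rose to 98.89 ± 1.65 TPM in set 3, against 85.24 ± 1.99 TPM in the non-targeting libraries (SD, n = 4 each; limma adjusted p = 0.00605). HM13, the signal peptide peptidase, fell to 55.46 TPM in HUWE1 siRNA set 1, against 62.66 TPM in non-targeting libraries.

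Of 19 other ER stress regulators tested, 2 were higher and 3 lower in set 1 (26.3%, against 30.3% of all genes), and 2 were higher in set 3 (10.5%, against 11.6%). The higher genes of set 3 were TMBIM6, an ER membrane protein that restrains IRE1, at 311.9 ± 8.64 TPM in set 3 and 250.6 ± 18.6 TPM in the non-targeting libraries, and MBTPS2, the protease that makes the second cut in ATF6. MBTPS2 was at 25.75 ± 1.52 TPM in set 3 and 20.50 ± 1.64 TPM in the non-targeting libraries (limma adjusted p = 0.0193). In set 1 MBTPS2 was at 18.65 TPM in HUWE1 siRNA libraries and 18.88 TPM in non-targeting libraries. Higher in set 1 were BAX, with a log2 fold change of 0.14 (limma adjusted p = 0.0101), and CREB3L1, with 0.28 (limma adjusted p = 0.0405). CREB3L1 was low, at 4.181 TPM in HUWE1 siRNA set 1 and 3.284 TPM in non-targeting libraries. Lower in set 1 were CREB3, NFYA, a subunit of the factor that binds CCAAT, and NFE2L1. NFYA was at 97.25 ± 5.53 TPM in HUWE1 siRNA set 1 and 111.8 ± 4.21 TPM in non-targeting libraries (limma adjusted p = 0.00656).

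The cytosolic heat shock genes, the counterpart of the ER response outside the ER, had 5 higher and 5 lower of 21 tested in set 1 (47.6%, against 30.3% of all genes), and 2 higher and 1 lower in set 3 (14.3%, against 11.6%). HSPA1A, an inducible HSP70, was at 1314 ± 50.9 TPM in set 3 and 1657 ± 155 TPM in the non-targeting libraries (SD, n = 4 each; limma adjusted p = 0.021). Higher in set 3 were HSP90AA1, at 1125 TPM against 911.1 TPM in the non-targeting libraries (limma adjusted p = 0.0487), and DNAJB4 (limma adjusted p = 0.0339). Reads of HSPA1A and its near-identical copy HSPA1B may be split between them. HSPA1B was higher in set 1, at 629.8 TPM in HUWE1 siRNA libraries and 554.5 TPM in non-targeting libraries (limma adjusted p = 0.00666). In set 2 none of the genes on these 7 lists was called.

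**Figure D4:**
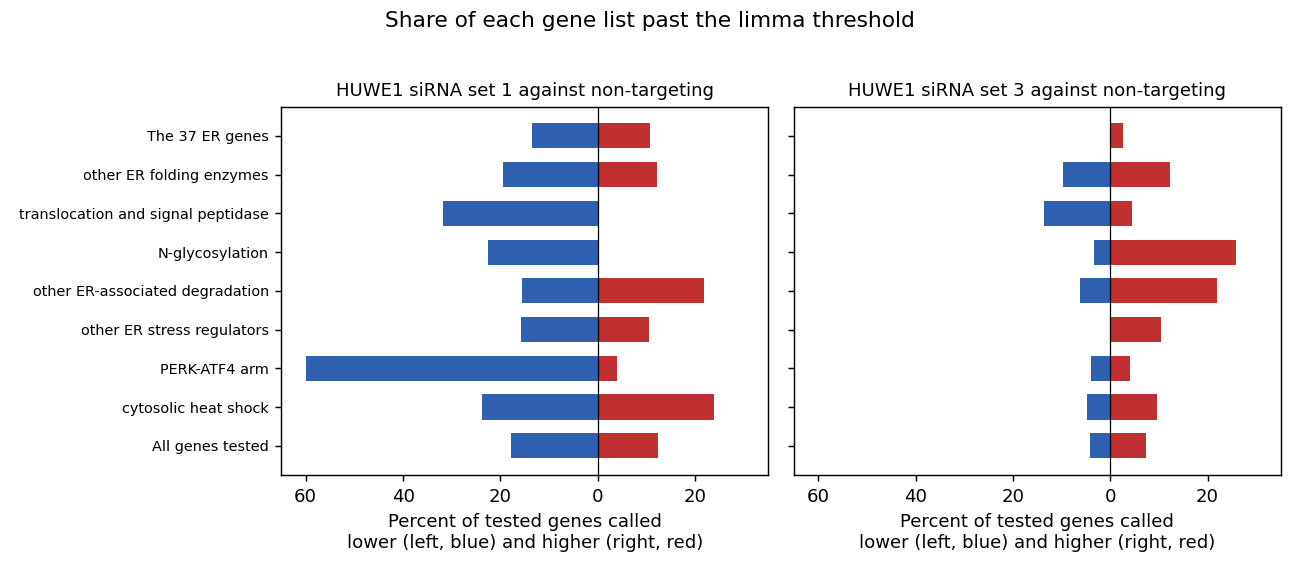
Percent of tested genes called lower (left, blue) and higher (right, red) in HUWE1 siRNA set 1 and in set 3, for the 37 ER genes, 7 lists of other ER and stress genes and all genes tested. The 37 genes lie near or under the all-gene bar in both panels, and the PERK and ATF4 arm has 15 of 25 genes lower in set 1 and 1 of 25 in set 3.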

How the data were processed

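Stranded poly(A) RNA-seq libraries (TruSeq, NovaSeq) were made from HEK293T cells, per the labels' protocols. Deposited by the authors were TPM values in 2 separately normalized tables. The build named is hg38, per the submitters' processing notes. Aligner, counter, annotation and strand setting: not given in the sources used here. TPM sums to the same total in each library, which hides the depth, and intervals for counting error were therefore not made.

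The filter kept genes that reached 1 TPM in 4 or more libraries of the table. These were fitted on log2(TPM + 1) with limma 3.58.1 (trend) in R 4.3.3, with Benjamini-Hochberg adjustment over all genes and a threshold of 0.05. Set 1 was fitted on its 8 libraries and sets 2 and 3 in 1 model of 12 libraries, and no test crosses the tables. Fold changes on this scale understate changes of low genes. A two-sided exact permutation test on TPM was also run on the members and HUWE1, and is reported here for HUWE1 alone. The procedure was run on simulated data with errors drawn independently for each gene. That run cannot show how it behaves when many genes of 1 library shift together. Gene coordinates and overlaps came from GENCODE release 29, and promoter windows from RefSeq.

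The members and the lists were chosen with earlier results of these data known. Named are all called members, the 6 members with the smallest p in each set, 9 stress readouts whether called or not, up to 3 called genes a direction of each list, and HUWE1; stress genes named beyond these (ATF4, DDIT3, DDIT4 in set 1, TRIB3 in set 3, MBTPS2 in set 1, SRPRA in set 2) and members such as CANX, UGGT1, PDIA3, EDEM2 and SSR1 were added after their values were seen. MARCH6 was matched to MARCHF6. Alternatives were other filters, pseudocount, scalings and variance models, the replicate block, only the 2 groups compared, the fit without non-targeting replicates 1 and 4, and leaving out each library.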

Additional observations from a re-analysis of the deposited data

Results flagged for a closer look

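With 190 groups of 4 libraries examined for a library far from its group (Dixon's test at 95%), 9.5 would be marked by chance, and 9 were. In HUWE1 siRNA set 3, replicate 4 had 451.0 TPM of HSPA5 (others 490.9 to 496.2) and 44.98 TPM of HERPUD1 (others 48.49 to 49.2), and replicate 3 had 305.2 TPM of PDIA6 (others 292.2 to 293.2). In HUWE1 siRNA set 1, replicate 1 had 357.4 TPM of PDIA4 (others 375.7 to 379.0) and 25.02 TPM of CREB3L2 (others 23.23 to 23.46), and replicate 2 had 100.3 TPM of SEC61B (others 91.33 to 92.63). In the non-targeting libraries of set 1, replicate 1 had 38.64 TPM of SEL1L (others 42.04 to 42.51), and replicate 2 had 49.66 TPM of SEC61G (others 59.43 to 61.1) and 151.7 TPM of OS9 (others 143.0 to 144.5).

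For 3 genes all libraries of one set lay on the other side of their non-targeting mean than all libraries of another set. HSPA5 had a log2 fold change of 0.0753 in set 1 and -0.1565 in set 3, DNAJC3 of -0.066 in set 1 and 0.12 in set 2, and CALR of 0.33 in set 1 and -0.04 in set 3. These differences were not tested, since set 1 is in another table.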

How the results depend on the processing

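HUWE1 kept its direction and call in every alternative. In set 1, 8 to 10 of the 37 genes were called on leaving out 1 library, in fits that called 22.8% to 29.3% of all genes. None of the other alternatives moved that count by more than 1.5 times, with 13.0% to 37.8% of all genes called. In set 2 the count was 0 throughout, in fits that called 0.0063% to 0.0369% of all genes. In set 3 it was 3 with a mean TPM of 5 or more, with median-of-ratios scaling or with quantile normalization, and 4 both without mitochondrially encoded genes and without non-targeting replicates 1 and 4. These fits called 9.53% to 20.6% of all genes. Leaving out 1 library gave 0 to 6 in set 3, in fits that called 1.03% to 37.2% of all genes. In set 3 against set 2 it gave 0 to 1, with 0.127% to 0.43% of all genes called. There the fit on only the 2 groups compared gave 1 (HSPA5), with 2.15% of all genes called.

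Small fold changes turned sign. HERPUD1 in set 3 was -0.0174 without mitochondrially encoded genes, XBP1 in set 3 was 0.0092 without non-targeting replicates 1 and 4, and HSP90B1 in set 3 against set 2 was -0.016 with quantile normalization and -0.0048 without mitochondrially encoded genes. Leaving out 1 library gave, in set 1, -0.0127 to 0.0676 for DNAJB9 and -0.0052 to 0.0472 for SDF2L1. In set 2 it gave -0.3028 to 0.0232 for SDF2L1, -0.0097 to 0.0521 for ATF6, -0.043 to 0.0262 for EIF2AK3 and -0.0049 to 0.0388 for ERN1. In set 3 it gave -0.0113 to 0.0528 for HERPUD1 and -0.0525 to 0.005 for ERN1, and in set 3 against set 2 -0.0308 to 0.065 for HSP90B1. The causes were not tested.

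Whether the replicate numbers pair the libraries cannot be told from correlations within groups of 4. Correlations of same-numbered deviations ran from 0.000215 to 0.0521 in set 1 and from -0.481 to 0.0389 in set 2. They ran from -0.0266 to 0.407 in set 3 and from -0.249 to 0.11 in set 3 against set 2. In these comparisons, 1, 0, 2 and 0 of the 4 libraries correlated best with the library of their own number. With the replicate block, 10, 0, 1 and 0 of the 37 genes were called in these comparisons, and 4597, 1, 693 and 17 of all genes. The member gained in set 1 was PDIA3. Over all genes, the set 3 count moved most on leaving out a library, from 163 without HUWE1 siRNA replicate 3 to 5878 without non-targeting replicate 4.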
